A study of Mus musculus with 6 samples.

Results

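The smooth muscle contractile apparatus and the actin cytoskeleton that carries its force were followed here through 42 genes, out of 32179 genes in the deposited table. They were taken by symbol from a list that covers the actins, smooth muscle and non-muscle myosins, tropomyosins, calponins and other thin filament proteins, dense body and Z-disc-related proteins, filamins and adhesion plaque proteins. Each of the 42 symbols matched 1 row of the table, and all 42 had a mean of at least 10 over the libraries and were tested. Total RNA was measured by sequencing in sorted vascular smooth muscle cells from skeletal muscle, and the donors were male C57BL6J mice 8 to 24 weeks old. There were 3 iSM-G5C-KO libraries, from mice depleted of the orphan G protein-coupled receptor GPRC5C in smooth muscle, and 3 control libraries labelled wild type. The source label of all 6 libraries says Gprc5c-floxed, both groups received tamoxifen and carried the mTmG reporter, and viable EGFP-positive cells were sorted after depletion of cells binding CD31, CD45 or Ter119 antibodies. The sources used here name no promoter for the recombinase and do not say whether each library came from a separate animal, so the p-values measure the spread between these libraries, which may be partly technical.

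Smooth muscle shortens when calcium and calmodulin switch on myosin light chain kinase, which phosphorylates the regulatory light chain of myosin and lets it pull on actin filaments. The filaments are anchored in cytoplasmic dense bodies and in plaques at the membrane, the counterparts of the Z-disc and of focal adhesions. Many of the genes are targets of serum response factor and its cofactor myocardin, and loss of contractile gene expression is the textbook mark of a smooth muscle cell that leaves the contractile state.

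Values are the authors' normalised counts, scaled with 1 factor for each library and deposited as whole numbers. The table holds an estimated 1481186 to 2581454 reads per KO library and 1556750 to 2935114 per control library, with the most reads at number 1 and the fewest at number 3 in both groups. Control library 3 stood apart in 29707 genes above 0, against 20774 to 20937 in KO libraries and 20481 to 21179 in the other controls. Without it, 0 members passed the adjusted test and 23 of 42 were lower in KO, against 27 with it. Gprc5c, the targeted gene, was at 328, 305 and 360 in KO libraries 1, 2 and 3, against 428, 532 and 497 in control libraries 1, 2 and 3. The KO libraries thus held 68.2% of the control mean, without overlap between the groups. The log2 fold change was -0.55 (SE 0.13). The unadjusted p from limma was 0.00323 and the adjusted p 0.999, or 0.142 with the replicate number as a block. Smooth muscle markers were present throughout: 15 of 15 listed genes were tested, and their summed value was 17701 to 20825 in KO libraries and 19070 to 20823 in controls. Markers of other cells were present as well, and Rgs5 is in both the smooth muscle and the pericyte list. The 11 pericyte genes summed to 9387 to 16413 in KO libraries and 8590 to 14079 in controls, and the 14 endothelial genes to 1003 to 2006 in KO libraries and 950 to 1535 in controls. The 12 fibroblast genes summed to 5513 to 9018 in KO libraries and 6446 to 9988 in controls, and the 24 skeletal muscle fibre genes to 3332 to 10805 in KO libraries and 2633 to 5439 in controls, with none of these genes at 0 in any library. Leukocyte markers summed to 106 to 550 in KO libraries and 102 to 439 in controls, with Cd79a, Itgam and Cd3e at 0 in KO library 2 and Itgam and Cd3e at 0 in control library 2. Satellite cell and myoblast markers summed to 1959 to 2556 in KO libraries and 2073 to 2423 in controls, with Myod1 and Myog at 0 in KO library 3. Most of this sum was Itga7 (1089 to 1585 in KO libraries, 1155 to 1492 in controls) and Des (710 to 808 in KO libraries, 712 to 766 in controls). Des is itself a member, and Itga7 is also on the list of adhesion partners. Pax7 was at 21 to 49 in KO libraries and 23 to 42 in controls. Schwann cell and nerve markers summed to 764 to 845 in KO libraries and 722 to 797 in controls. In bulk RNA, a smaller share of cells of a type and less RNA per cell cannot be told apart.

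Acta2 and Myh11 were at nearly the same level in both groups. Acta2, the smooth muscle actin, averaged 1108 ± 136 in KO libraries and 1107 ± 106 in controls (SD, n = 3 each), and Myh11, the smooth muscle myosin heavy chain, 4341 ± 432 in KO libraries and 4547 ± 365 in controls (SD, n = 3 each). Of 9 defining contractile genes (Acta2, Myh11, Tagln, Cnn1, Lmod1, Mylk, Myl9, Smtn and Des), 6 had a log2 fold change smaller than its standard error without a block, while Cnn1, Smtn and Lmod1 were lower by more than that. Log2 differences of at least 0.25, taken on log2(value + 1), occurred in 7 members, with Sorbs2, Actg2, Svil, Cnn1, Palld and Flnc lower and Cnn3 higher in KO libraries. In all, 27 of 42 members were lower in KO (64.3%, against 49.8% of all tested genes), with a median of -0.02 on the log2 scale, beside 0.0011 over all tested genes. This median was 0.0020 with quantile normalisation, 0.015 without KO library 2 and -0.070 with sample quality weights. The 42 values summed to 46396, 42048 and 46185 in KO libraries 1, 2 and 3, and to 45532, 45942 and 46211 in control libraries 1, 2 and 3, which is 2.07% to 2.23% of all values in KO libraries and 2.05% to 2.24% in controls. No member passed limma's test over all genes with Benjamini-Hochberg adjustment, where the smallest adjusted p among the 42 was 0.999. In the same fit 0 of 12735 tested genes passed (0%). At an unadjusted p under 0.05, 1 member and 230 of all tested genes were counted, 2.38% of the members against 1.81% of the tested genes. With the replicate number as a block, 0 members and 1 tested gene (0.00785%) passed, and the smallest adjusted p among members was 0.299, for Sorbs2.

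**Figure D1:**
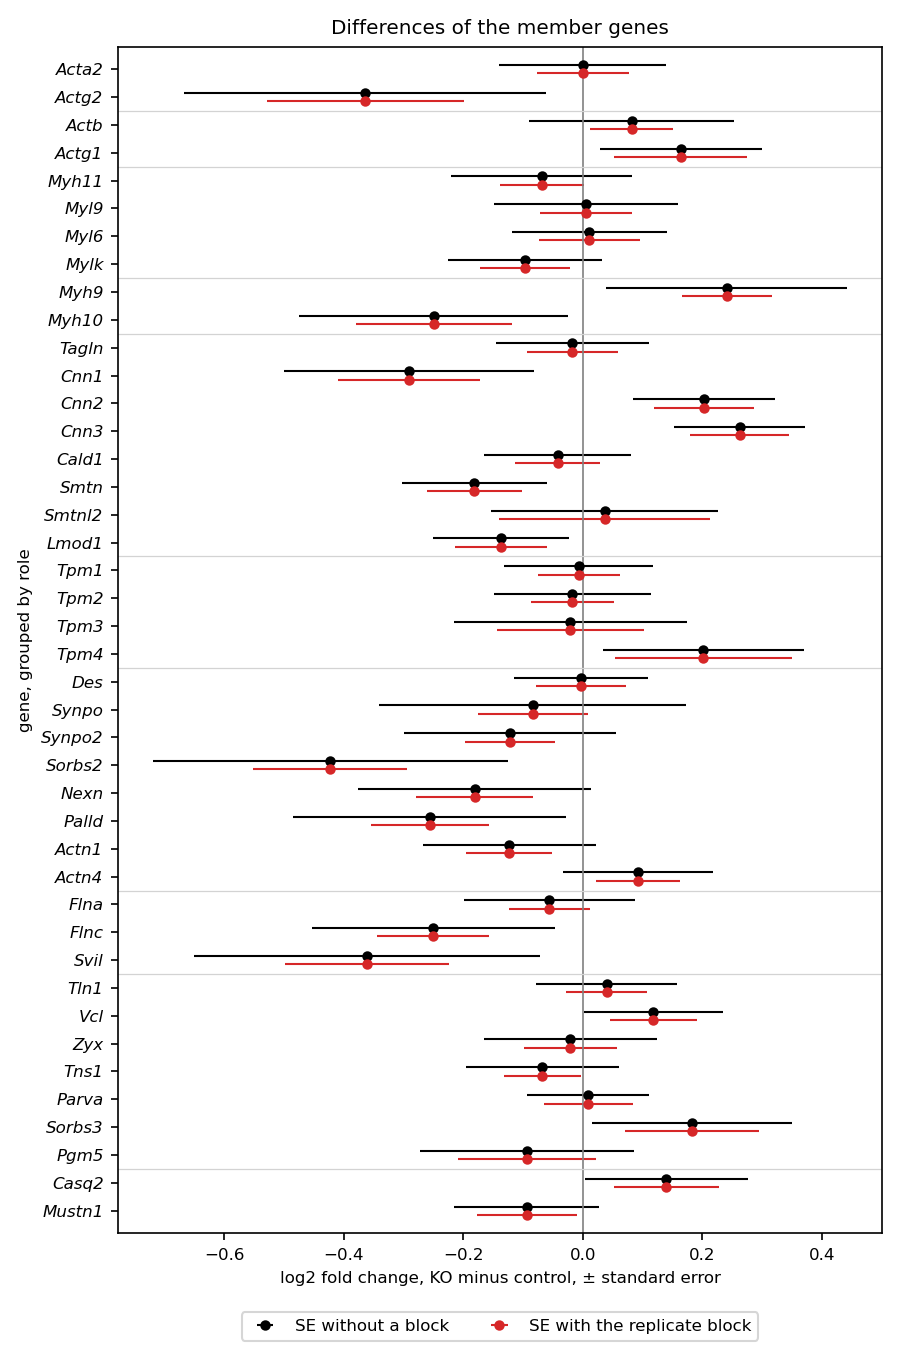
Log2 fold change of each of the 42 genes, KO minus control, on the log2(value + 1) scale (x axis), grouped by role (y axis, grey lines part the groups). Points are the estimates from 3 KO and 3 control libraries and bars the standard errors from limma without a block (black) and with the replicate number as a block (red). Values run from -0.42 for Sorbs2 to 0.26 for Cnn3, and Acta2, Myh11, Myl9, Tagln and Des lie within their standard errors of 0.

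Levels between genes were set side by side per kilobase of annotated exon. Myl9, the regulatory light chain, stood at 602 per kb in KO libraries and 597 in controls, Myh11 at 571 in KO libraries and 598 in controls. The filamin gene Flna stood at 542 per kb in KO libraries and 562 in controls, and Acta2 at 505 in KO libraries and 504 in controls. Neighbours in this order overlapped in their values per kb over the libraries of a group. Actb, the cytoplasmic beta-actin, followed at 433 per kb in KO libraries and 407 in controls, and Tagln, the actin-binding protein transgelin (SM22), at 383 in KO libraries and 387 in controls. At the low end were the smoothelin-like gene Smtnl2, at 13.1 per kb in KO libraries and 12.7 in controls, and Myh10, the heavy chain of non-muscle myosin IIB, at 17.6 in KO libraries and 20.3 in controls. Over all 12735 tested genes, Myl9 ranked 7th, Myh11 8th, Flna 11th and Acta2 15th per kb.

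**Figure D2:**
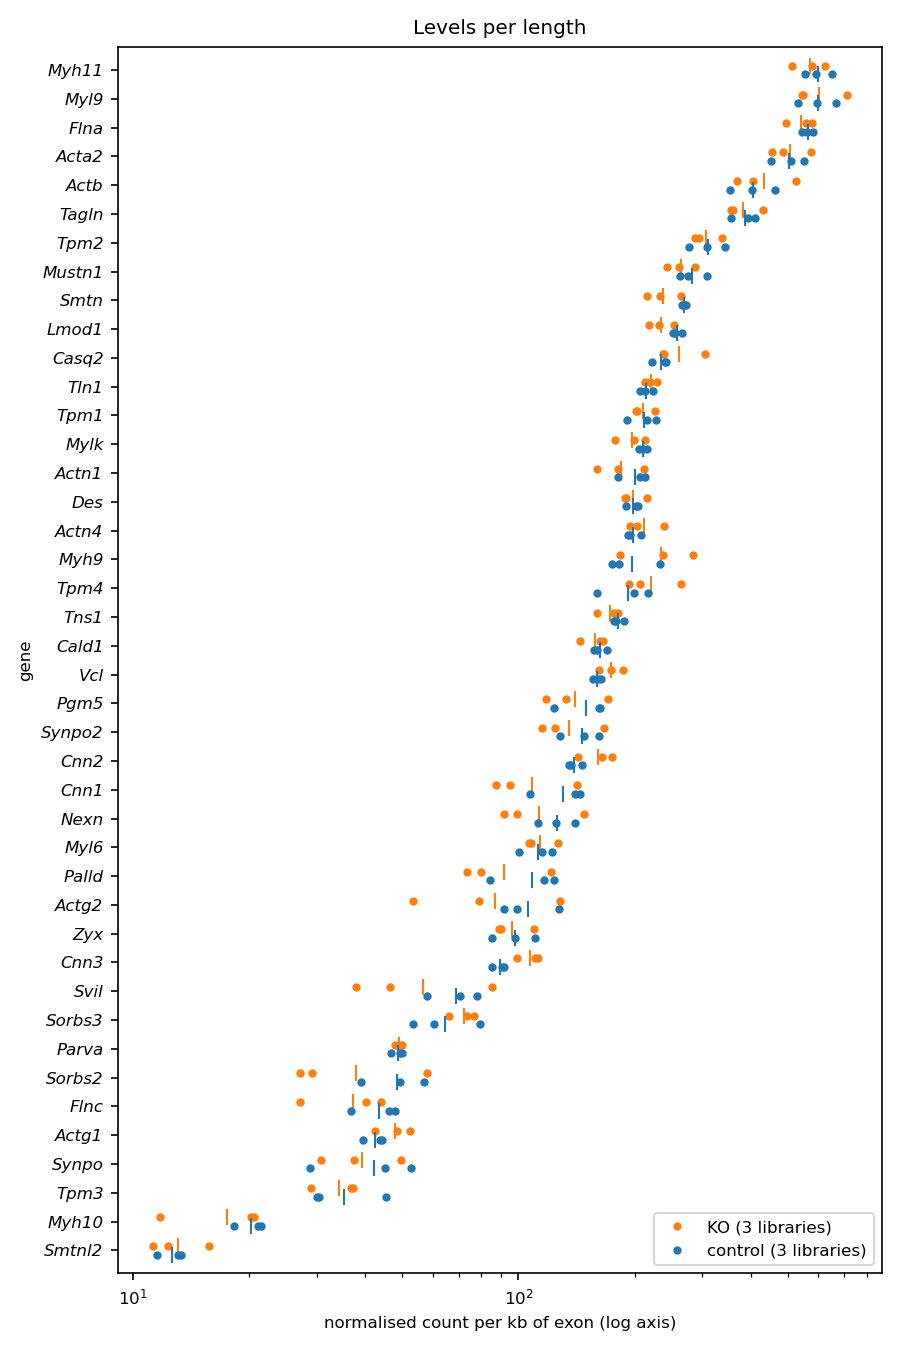
Normalised counts per kb of exon on a log axis for the 42 genes, ordered by the control mean. Orange points are the 3 KO libraries, blue points the 3 control libraries, and vertical ticks the group means. The means span 13.1 to 602 per kb in KO libraries, and the points of the groups overlap in every gene but Cnn3 and Smtn.

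Among the contractile actins, Acta2 (ENSMUSG00000035783, chromosome 19, 34241090 to 34255336, minus strand, GRCm38) was at 1067, 998 and 1260 in KO libraries 1, 2 and 3, against 995, 1118 and 1207 in control libraries 1, 2 and 3. The groups overlapped, and the log2 fold change was -0.00034 (SE 0.14). Actg2, the gamma smooth muscle actin best known from gut and other visceral muscle, was at 123, 199 and 83 in KO libraries and 143, 198 and 154 in controls. Its lowest value was in KO library 3, and the libraries numbered 2 were level. The log2 fold change was -0.36 (SE 0.30).

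The cytoplasmic actins were slightly higher in the KO library at each number. Actb was at 987, 1090 and 1402 in KO libraries and 949, 1080 and 1242 in controls, a log2 fold change of 0.08 (SE 0.17). Actg1, the cytoplasmic gamma-actin, was at 113, 129 and 139 in KO libraries and 105, 116 and 118 in controls, a log2 fold change of 0.16 (SE 0.14). Library 3 was the highest of its group in both genes and both groups. In Actg1, 37.4% of the 50-base stretches of the annotated transcripts also occur in transcripts of 23 other genes, and in Actb 9.12%, so reads of these genes could be lost or split in counting and their levels are uncertain.

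Of the myosin genes of the contractile unit, Myh11 (ENSMUSG00000018830, chromosome 16, 14194527 to 14291408, minus strand) was at 4397, 3883 and 4742 in KO libraries and 4218, 4484 and 4940 in controls. Its log2 fold change was -0.07 (SE 0.15). Mylk, which encodes myosin light chain kinase, was at 2403, 2008 and 2249 in KO libraries, against 2363, 2425 and 2316 in controls. KO library 2 was the lowest in both genes, and the other KO libraries lay within or near the control range. Myl9 was at 636, 633 and 828 in KO libraries and 616, 690 and 776 in controls, a log2 fold change of 0.01 (SE 0.15). The essential light chain gene Myl6 was at 343, 339 and 403 in KO libraries and 320, 367 and 390 in controls, with a log2 fold change of 0.011 (SE 0.13). In both light chains the groups overlapped.

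The 2 non-muscle myosin genes differed in sign, and neither passed the test. Myh9, the heavy chain of non-muscle myosin IIA, was at 2367, 3060 and 3665 in KO libraries and 2260, 2361 and 3014 in controls, a log2 fold change of 0.24 (SE 0.20). It was higher in the KO library at every number. The unadjusted p was 0.268 without a block and 0.0115 with it (adjusted p from limma = 0.308 with the block). Myh10 was at 216, 212 and 123 in KO libraries, against 221, 225 and 191 in controls. KO library 3 was its lowest, and the log2 fold change was -0.25 (SE 0.23), but 0.015 without KO library 3. Of 6 ratios between members computed within libraries, chosen after their values were seen, exact 2-sided permutation p-values were 0.2 to 0.5. The ratio of Myh11 to Myh9 was 1.86, 1.27 and 1.29 in KO libraries and 1.87, 1.90 and 1.64 in controls. KO library 1 lay within the control range and KO libraries 2 and 3 below it, and its exact permutation p was 0.2, where 3 against 3 libraries allow 0.1 at the smallest.

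Calponins, a family of actin-binding proteins with a smooth muscle member and broadly expressed members, differed in direction. Cnn1, the smooth muscle calponin (chromosome 9, 22099216 to 22109630, plus strand), was at 389, 260 and 239 in KO libraries and 383, 394 and 294 in controls. The libraries numbered 1 were level, and the KO library was lower at numbers 2 and 3, for a log2 fold change of -0.29 (SE 0.21). Cnn2 was at 352, 430 and 405 in KO libraries, against 332, 359 and 337 in controls (log2 fold change 0.20, SE 0.12). Cnn3 (ENSMUSG00000053931, chromosome 3, 121426497 to 121458207, plus strand) was at 302, 342 and 335 in KO libraries and 260, 276 and 279 in controls. Its log2 fold change was 0.26 (SE 0.11), and 3 of 3 KO libraries were above every control. It was the single member with an unadjusted p under 0.05 without a block (0.0461), a count that was 0 when the filter was dropped or another scaling was used. In Cnn3, 10.3% of the 50-base stretches are shared with 2 other genes. The 3 calponins had unadjusted p-values from limma of 0.0372, 0.0394 and 0.0126 with the block, in the order Cnn1, Cnn2, Cnn3, and adjusted p of 0.451, 0.456 and 0.327.

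Of the 8 thin filament and actin-binding genes, calponins included, 3 were higher and 5 lower, and without KO library 2 it was 5 higher and 3 lower. Tagln was at 718, 709 and 858 in KO libraries and 709, 783 and 816 in controls, a log2 fold change of -0.02 (SE 0.13). Smtn, the gene of smoothelin, a marker of contractile smooth muscle (chromosome 11, 3517523 to 3539292, minus strand), was at 1155, 945 and 1021 in KO libraries, against 1162, 1191 and 1175 in controls. Every KO value lay below every control value, and KO library 1 was only 7 normalised counts below the lowest control. Its log2 fold change was -0.18 (SE 0.12), with an unadjusted p of 0.175 without a block and 0.0508 with it. Smtn and Cnn3 were the 2 members whose groups did not overlap, 4.76% of the members, where 4.91% of all tested genes did not. The exact permutation p was 0.1 for each, the smallest that 3 against 3 libraries allow. Lmod1, a leiomodin that nucleates actin filaments, was at 1000, 863 and 913 in KO libraries and 1003, 1050 and 995 in controls (log2 fold change -0.14, SE 0.11). Caldesmon, encoded by Cald1, had a log2 fold change of -0.04, and Smtnl2, at 43 to 60 in KO libraries and 44 to 51 in controls, rests on the fewest reads of all members.

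Of the 4 tropomyosins, which lie along the actin filament, 3 had log2 fold changes near 0. Tpm1, a main muscle form, was at 1312, 1313 and 1463 in KO libraries and 1243, 1397 and 1472 in controls. Tpm2, another main muscle form, was at 834, 854 and 979 in KO libraries and 805, 899 and 999 in controls. Their log2 fold changes were -0.0068 (SE 0.12) and -0.02 (SE 0.13). Tpm4, a form of the cytoskeleton, was at 426, 582 and 454 in KO libraries, against 477, 353 and 439 in controls. Its mean difference of 0.20 came from the libraries numbered 2, which differed by 0.72. At number 1 the KO library was lower by 0.16. Tpm3 was at 224, 227 and 176 in KO libraries and 276, 185 and 183 in controls. Its log2 fold change was -0.02 (SE 0.20), and it shares 23.2% of its 50-base stretches with 5 other genes. Tpm4 shares 11.65% with 1 other gene. Outside this group, Myl6 shares 8.38% with 5 other genes and Nexn 5.89% with 1.

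The dense body and Z-disc-related genes were mostly lower in KO libraries, 7 of 8, and the median of the 8 log2 fold changes was -0.12. The median was -0.04 without KO library 3, -0.06 without control library 1, -0.27 without KO library 1 and -0.24 without control library 3. At number 1 only 3 of 8 were lower (median 0.0097), against 7 at number 2 (-0.26) and 5 at number 3 (-0.17). For Des, at -0.0031, the sign turned with upper-quartile scaling and with quantile normalisation. Des, the gene of the intermediate filament protein desmin, which is also abundant in skeletal muscle fibres, was at 715, 710 and 808 in KO libraries and 712, 766 and 757 in controls. The groups overlapped. Sorbs2, an adaptor that links actin to adhesion proteins (chromosome 8, 45507788 to 45827906, plus strand), was at 1610, 811 and 755 in KO libraries, against 1588, 1373 and 1090 in controls. The libraries numbered 1 were level, while KO libraries 2 and 3 lay below every control. The log2 fold change was -0.42, its standard error 0.30 without a block and 0.13 with it, and the unadjusted p 0.195 without a block and 0.0102 with it.

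Palld, which encodes the actin cross-linker palladin, had the same shape. It was at 1247, 821 and 759 in KO libraries and 1273, 1197 and 870 in controls, a log2 fold change of -0.26 (SE 0.23). The unadjusted p was 0.0297 with the block (adjusted p from limma = 0.430). Synpo2, for myopodin (synaptopodin 2), was at 2181, 1627 and 1505 in KO libraries, against 2121, 1937 and 1675 in controls. Nexn, for the actin-binding protein nexilin, was at 566, 379 and 352 in KO libraries and 536, 478 and 430 in controls. Both were higher in the KO library at number 1 and lower at numbers 2 and 3. Synpo, for synaptopodin, was at 473, 358 and 293 in KO libraries, against 501, 429 and 275 in controls. The alpha-actinins, which cross-link actin, differed in sign. Actn1 was at 1174, 1002 and 885 in KO libraries and 1177, 1143 and 1000 in controls (log2 fold change -0.12, SE 0.14). Actn4 was at 1193, 1246 and 1458 in KO libraries and 1182, 1190 and 1271 in controls (log2 fold change 0.09, SE 0.13).

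Filamins and the membrane-skeleton linker supervillin were lower in 3 of 3 genes, and in 2 of 3 without KO library 2, where Flna turned. Flna, the member with the highest value in every library, averaged 5095 ± 411 in KO libraries and 5287 ± 167 in controls (SD, n = 3 each), and its log2 fold change was -0.06 (SE 0.14). Flnc, the muscle filamin, was at 415, 379 and 255 in KO libraries and 435, 449 and 346 in controls, a log2 fold change of -0.25 (SE 0.20). It was lower in the KO library at each number, with an unadjusted p of 0.0266 with the block and 0.257 without it. Svil, for supervillin (chromosome 18, 4920540 to 5119299, plus strand), was at 913, 497 and 405 in KO libraries, against 835, 753 and 621 in controls. KO library 1 was above every control and KO libraries 2 and 3 were below every control, for a log2 fold change of -0.36 (SE 0.29). With the block the unadjusted p was 0.0283 and the adjusted p from limma 0.424.

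Of 7 adhesion plaque genes 4 were higher and 3 lower, and the median of their log2 fold changes was 0.0092. Vcl, for vinculin, was at 1325, 1421 and 1528 in KO libraries and 1341, 1276 and 1316 in controls (log2 fold change 0.12, SE 0.12). Tln1, for talin, which couples integrins to actin, had a log2 fold change of 0.04. The tensin gene Tns1 was at -0.07, the zyxin gene Zyx at -0.02 and the alpha-parvin gene Parva at 0.0092. In these 4 genes the log2 fold change was smaller than its standard error. Sorbs3, for vinexin, was at 240, 279 and 267 in KO libraries, against 193, 219 and 289 in controls, so that the KO library was higher at numbers 1 and 2 and lower at number 3. Pgm5, an enzyme-like protein of adhesion sites, was at 617, 426 and 479 in KO libraries and 583, 588 and 446 in controls. Casq2, a calcium-binding protein of the calcium store, was at 652, 648 and 835 in KO libraries and 607, 660 and 658 in controls. KO library 3, where Casq2 was highest, also had the largest sum of skeletal muscle fibre markers, 10805, of which Ttn was 5386. Neb was also higher there than in control library 3 (661 against 199), but Acta1 (399 against 488) and Ckm (200 against 267) were lower. Casq1, on the same list, was at 43 in KO library 3 and 45 to 60 in controls. The part of fibre RNA in the Casq2 value was not tested. Mustn1, a small nuclear protein of the musculoskeletal system, had a log2 fold change of -0.09.

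**Figure D3:**
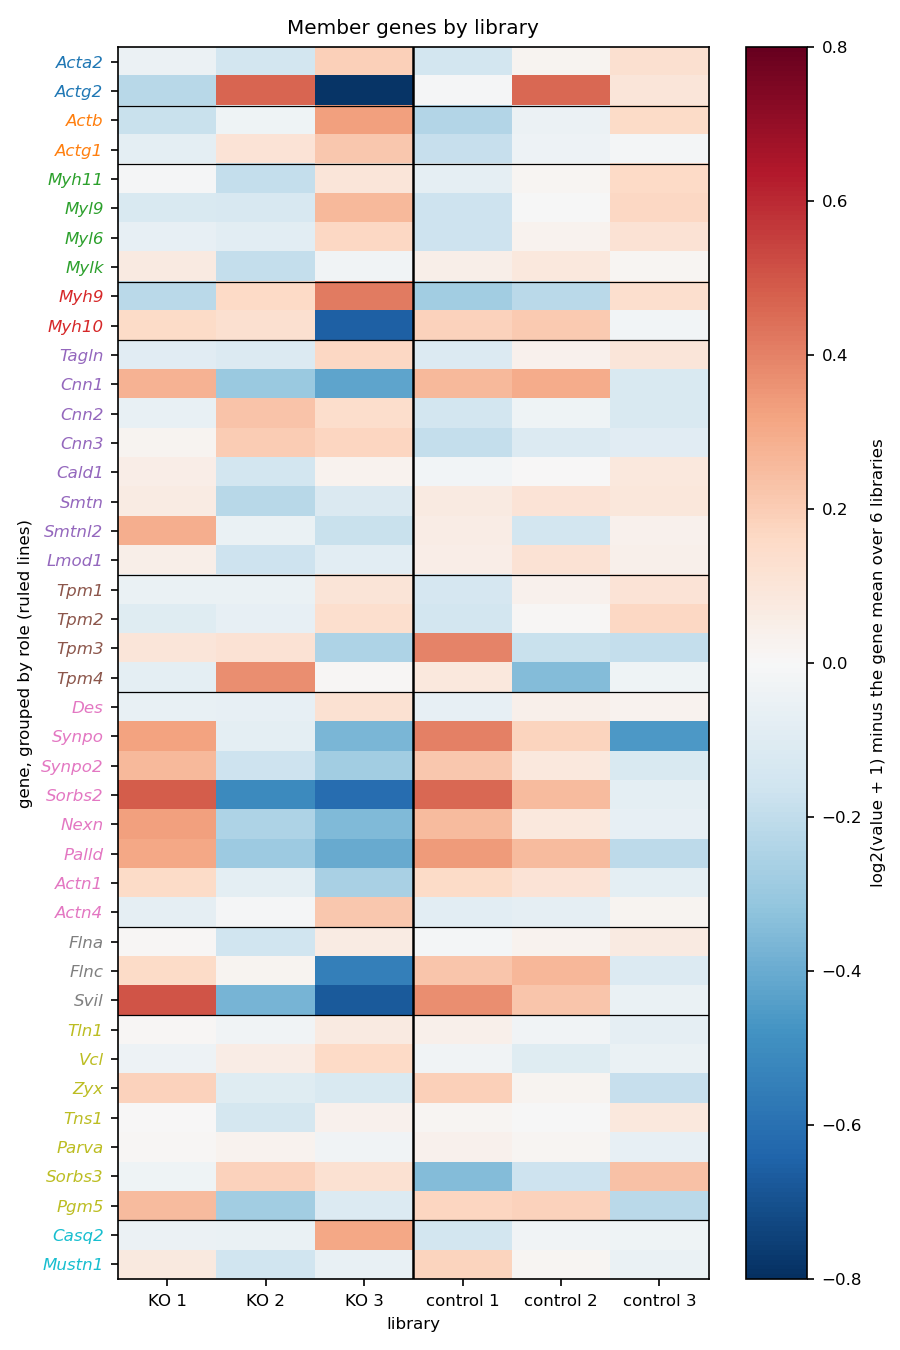
Log2(value + 1) minus the gene's mean over the 6 libraries (colour scale from -0.8 to 0.8) for the 42 genes in rows, ruled by role, with KO libraries 1 to 3 left of control libraries 1 to 3. The libraries numbered 1 of both groups look alike, and Sorbs2, Svil, Palld, Nexn, Synpo2 and Cnn1 have their lowest values in KO library 3.

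By replicate number, the differences were concentrated in the libraries numbered 2 and 3. The median absolute difference between KO and control of the same number was 0.058, 0.18 and 0.13 on the log2 scale over the members at numbers 1, 2 and 3, beside 0.16, 0.21 and 0.21 over all tested genes. At number 1, 4 members differed by more than 2 counting errors, at number 2 it was 25 (7 higher and 18 lower in KO) and at number 3 it was 18 (7 higher and 11 lower). These are 9.52%, 59.5% and 42.9% of the members, against 13.5%, 22.4% and 13.3% of the tested genes above 0 in both libraries. The members hold more reads than most tested genes, so a difference of the same size is more often beyond its counting error. The counting error here comes from estimated reads and leaves out every other source of spread. The median difference of the members was 0.023, -0.12 and -0.0089 at numbers 1, 2 and 3, with 16, 28 and 23 of 42 lower in the KO library. A lower KO library at all 3 numbers was found for 8 members (19.0%) and a higher one for 6 (14.3%), against 15.4% and 14.0% of all tested genes. Between numbers 2 and 3, which share no library, the members' differences had Pearson's r of 0.47 across 42 genes and the same sign in 29 of them (69.0%). Across all tested genes r was 0.20, with the same sign in 56.0%. Between numbers 1 and 2 the members' r was -0.022 with the same sign in 42.9%, and between numbers 1 and 3 it was 0.24 with the same sign in 54.8%. Genes are not independent replicates, and these values are given as a description.

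**Figure D4:**
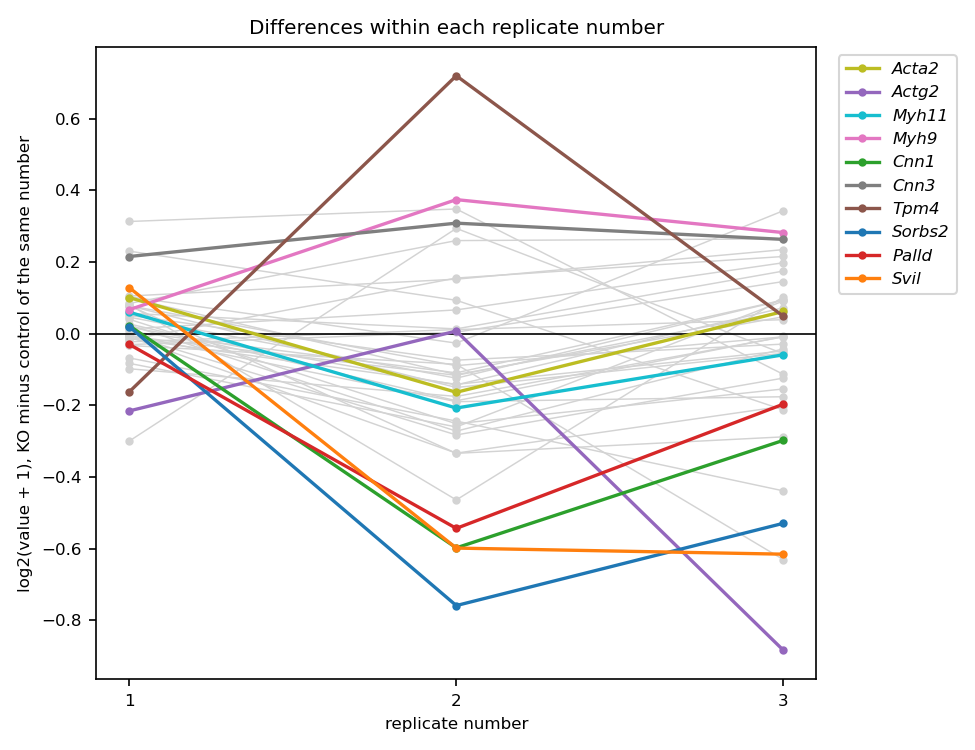
Difference in log2(value + 1) between the KO and the control library of the same replicate number (y axis) at numbers 1, 2 and 3 (x axis), with a line for each of the 42 genes and 10 of them coloured. Lines start close together at number 1. At number 2 they spread from -0.76 (Sorbs2) to 0.72 (Tpm4), and at number 3 from -0.88 (Actg2) to 0.34 (Casq2), with Cnn3 and Myh9 above 0 at each number.

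With the replicate block, 8 members had an unadjusted p under 0.05, 19.0% of them against 10.2% of all tested genes. Higher in KO were Cnn2, Cnn3 and Myh9, 3 members, where 4.29% of all tested genes were higher at this p. Lower were Sorbs2, Flnc, Svil, Palld and Cnn1, 5 members, where 5.96% of all tested genes were lower. Each of the 8 kept its sign under all 19 alternatives tried. When both libraries numbered 1 were left out of the fit with the block, Sorbs2 and Svil passed over all genes, with log2 fold changes of -0.64 and -0.61 and adjusted p from limma of 0.0366 and 0.0403. In that fit 61 genes passed in all, and it rests on 2 libraries per group. Leaving out number 2 or number 3 in the fit with the block gave 0 members, with Sorbs2 at -0.25 and -0.37 and Svil at -0.24 and -0.23. Some marker lists differed between the groups as well. In KO libraries 11 of 11 pericyte markers (median log2 fold change 0.22), 14 of 14 endothelial markers (0.27) and 20 of 24 skeletal muscle fibre markers (0.20) were higher, while 10 of 12 fibroblast markers (-0.11) and 12 of 15 smooth muscle markers (-0.14) were lower. Of the 15 smooth muscle markers 7 are members themselves, so part of that count restates the members. These directions did not hold at every number. At numbers 1, 2 and 3, 6, 2 and 1 of 14 endothelial markers were lower in the KO library. For fibre markers it was 6, 5 and 12 of 24, and for pericyte markers 1, 0 and 0 of 11. It was 11, 6 and 8 of 12 fibroblast markers and 6, 12 and 10 of 15 smooth muscle markers. Rgs5, higher in KO libraries, is counted in both the smooth muscle and the pericyte list. With limma 0 of these markers passed the adjusted threshold in either fit. Without the block 2 fibre markers, Ttn and Ryr1, had an unadjusted p under 0.05. With the block it was 9 of 11 pericyte markers (81.8%), 7 of 15 smooth muscle markers (46.7%) and 4 of 12 fibroblast markers (33.3%). It was 7 of 24 fibre markers (29.2%) and 4 of 14 endothelial markers (28.6%), each of these shares larger than the 19.0% of the members. Below it were leukocyte markers (1 of 7 tested, 14.3%), Schwann cell and nerve markers (1 of 8, 12.5%) and satellite cell markers (0 of 6). The part of these cells in the members' values was not tested.

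Libraries of different number also differed within a group, and in a like way in both groups. Library 3 was above library 1 in both groups for 18 members and below it in both for 18, and across the 42 genes the log2 difference of library 3 minus library 1 in KO and that in controls had Pearson's r of 0.81. The genes that were higher in library 3 of both groups included Acta2, Actb, Myl9, Tagln, Tpm2 and Myh9, with a median exon length of 3112 bp. Those that were lower in both included Sorbs2, Svil, Palld, Synpo, Synpo2, Nexn and Cnn1, with a median of 7744 bp. The classes mixed lengths, with Tns1 (16010 bp) and Flna (9400 bp) higher in both and Mustn1 (1236 bp) lower in both. For Svil the difference was -1.17 in KO libraries and -0.43 in controls, and for Sorbs2 -1.09 in KO libraries and -0.54 in controls. Across the members, Spearman's rank correlation between exon length and this difference was -0.42 in KO libraries and -0.38 in controls, and between exon length and the log2 fold change of KO over control -0.32. Estimated reads were also lower in library 3 than in library 1 of both groups. Pericyte, endothelial, fibroblast and skeletal muscle fibre marker sums were higher in library 3 of both groups. So were the satellite cell, the Schwann cell and the smooth muscle sums, the last from 19427 to 20825 in KO libraries and 19070 to 20823 in controls. Within the smooth muscle list, Rgs5 rose from 1629 to 2785 in KO libraries and 1472 to 2441 in controls. Notch3 rose from 2801 to 4319 in KO libraries and 2789 to 3774 in controls. Myh11, Acta2, Tagln and Mcam were also higher in library 3 of both groups. Cnn1, Kcnmb1, Myocd, Ldb3, Mylk, Itga8, Pln and Lmod1 were lower there in both groups, and Smtn in KO only. In the satellite cell list, Itga7 rose most. The part of reads and of these cells in the members' values was not tested.

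**Figure D5:**
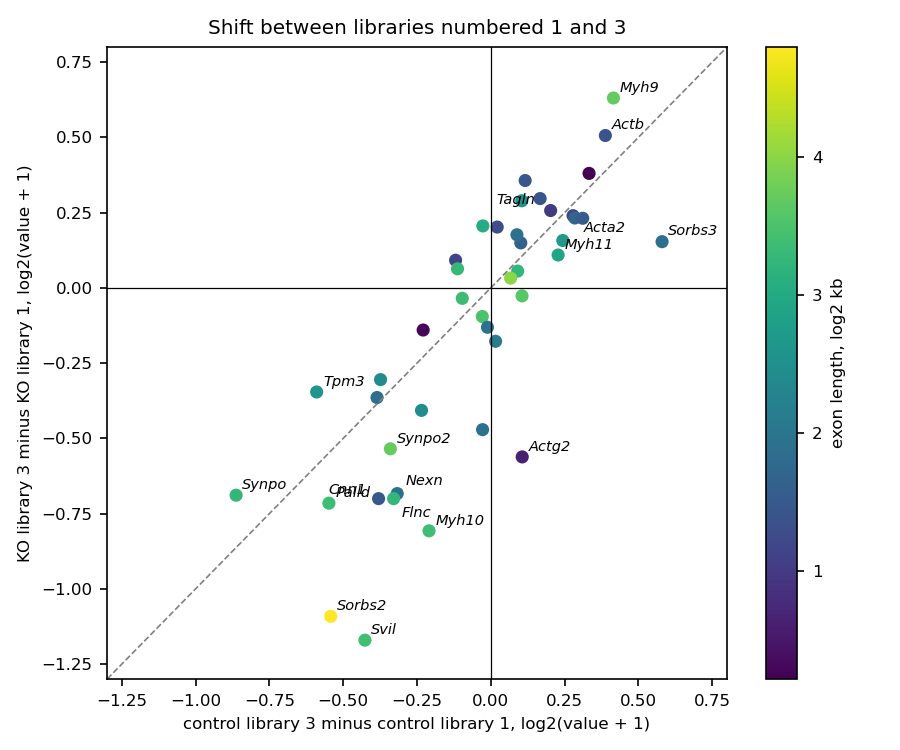
Difference in log2(value + 1) of library 3 minus library 1 in KO (y axis) and in controls (x axis) for each of the 42 genes, coloured by exon length in log2 kb. The dashed line marks equal differences. Of the 42 points 36 lie in the lower left or upper right, where both differences have the same sign, and Svil, Sorbs2 and Myh10 lie below the line.

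Promoter sequence was looked at for a CArG box, the binding motif of serum response factor, in windows from 250 bases before to 50 bases after the gene start (RefSeq, GRCm38). The search took exact matches to the consensus, which reads the same on both strands. For 9 members there was no window, and they were not searched. Of 33 members with a window, 5 held a box (15.2%), against 1.81% of 27025 genes and 1.68% of 9361 tested genes with a window. These are Myl9, Cnn2, Myl6, Actg1 and Vcl, and their stretches are shown because they mark the members with an exact box near the start. Capitals mark the box, which starts 161, 56, 50, 90 and 227 bases before the RefSeq gene start in that order. This start can differ from that of the deposited table. For Myl6, whose listed gene runs from 128490860 to 128493875 on the minus strand, the box lies inside the listed gene.
Myl9: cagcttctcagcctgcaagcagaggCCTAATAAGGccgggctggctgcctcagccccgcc
Cnn2: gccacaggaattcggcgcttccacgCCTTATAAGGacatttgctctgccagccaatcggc
Myl6: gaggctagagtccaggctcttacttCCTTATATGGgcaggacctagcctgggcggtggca
Actg1: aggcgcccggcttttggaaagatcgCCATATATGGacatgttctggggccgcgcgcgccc
Vcl: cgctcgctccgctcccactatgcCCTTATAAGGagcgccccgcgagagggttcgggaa
On GRCm38 these lie at chr2:156775278-156775337 (plus strand), chr10:79988519-79988578 (plus), chr10:128493025-128493084 (minus), chr11:120348551-120348610 (minus) and chr14:20929148-20929205 (plus). The 5 genes had log2 fold changes of 0.0051, 0.20, 0.011, 0.16 and 0.12, and the 28 members with a window and no exact box a median of -0.05, with 7 of them higher. For Myl9 and Myl6 the value was smaller than its standard error (0.15 and 0.13), and each changed sign in 5 alternatives. The contrast between members with and without a box was not tested. A match is a description of the sequence, and no match says only that the exact letters are not in this window.

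Regulators and partners of the apparatus were taken from lists that share some genes. Of 17 tested genes of the serum response factor and myocardin group, 11 were lower in KO libraries, the median was -0.10 on the log2 scale and 0 passed the threshold. Those with the smallest p were Fhl2 (log2 fold change 0.50), Tead3 (-0.31), Csrp2 (-0.26) and Prrx1 (0.28). Myocd itself, the gene of myocardin, named after its values were seen, was at 571, 272 and 252 in KO libraries and 619, 493 and 281 in controls. KO libraries 2 and 3 were below every control, and library 3 was the lowest in both groups. The log2 fold change of Myocd was -0.376, smaller than its standard error of 0.380 without a block. In the group of myosin phosphatase and its regulators 12 of 16 were lower, with a median of -0.05. Ppp1r12b, a targeting subunit of myosin phosphatase, was at 1684, 983 and 937 in KO libraries, against 1716, 1515 and 1159 in controls. It had the smallest p of this group, with a log2 fold change of -0.32. Among 40 adhesion and dense body partners, 23 were lower, with a median of -0.03. Ldb3 and Pdlim3, PDZ-LIM proteins of the Z-disc, had log2 fold changes of -0.64 and -0.41, Bcar1, an adhesion scaffold, had 0.35 and the cofilin gene Cfl1 had 0.19. With limma 0 genes of these lists passed, with or without the block.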

How the data were processed

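The deposited values are a score per gene in each library, in which the steps of low values show counts scaled by 1 factor and then made whole numbers. DESeq2 1.18.1, featureCounts 1.6.5, STAR 2.6.1d and Trimmomatic 0.39 appear, without their roles, in the submitters' processing notes, as do mm10 and GRCm38.p5. Strand use in counting and any removal of duplicate reads are not stated there. Removal of duplicates would lower short abundant transcripts most. The worth of 1 read, 0.8310, 0.9225 and 1.3975 in KO libraries 1 to 3 and 0.7550, 0.9150 and 1.3265 in controls, came from the spacing of low values and gave the estimated reads.

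limma 3.58.1 in R 4.3.3 was run with an intensity trend on log2(value + 1), 2-sided, on 12735 genes with a mean of at least 10, with Benjamini-Hochberg adjustment over all of them and a threshold of 0.05. Fold changes on this scale understate low genes. The script was checked on simulated data. Exon length is the union of exons in GENCODE M21. Exact permutation tests used scipy 1.17.1 in Python 3.11.15.

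Over all tested genes, the deviations of KO and control libraries from their group means correlated at 0.59, 0.31 and 0.44 for numbers 1, 2 and 3, and at most 0.157 between unlike numbers. The numbers therefore count as pairing the libraries, on the data alone, as the labels are silent on what they mark. Among the members alone these correlations were 0.72, 0.085 and 0.76, and KO library 2 correlated about as much with control library 3 (0.090), so at number 2 the pairing is not seen in the members. The members, lists, tests and alternatives were chosen with earlier results of these data known. Full values are given for defining contractile genes, the cytoplasmic actins, and members without overlap or with an unadjusted p under 0.05 in either fit. The rule also named up to 4 genes with the smallest p in each list. This was done for the regulator, partner and paralog lists, except that the phosphatase group is given by its first gene, as 1 of the others is not reported here, while the marker lists are given as sums and counts. Alternatives were other pseudocounts, filters, scalings and weights, the replicate block, and leaving out libraries.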

Additional observations from a re-analysis of the deposited data

How the results depend on the processing

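The count of members past the threshold was 0 in 18 of 19 alternatives. The exception was the replicate block without both libraries numbered 1, where it was 2 (Sorbs2 and Svil) and the count over all tested genes was 61. That count was 0 in the fit without a block, 1 with the replicate block, 2 with sample quality weights, 1 with the block without number 2 and 0 without number 3 or without any single library. For each of these changes the cause was not tested. The members' median log2 fold change of -0.021 was -0.070 with sample quality weights, 0.0020 with quantile normalisation, and -0.078 to 0.015 when 1 library was left out, above 0 without KO library 2. Of 42 members 27 were lower in KO, and 20 (quantile normalisation) to 29 in alternatives that kept all libraries. Without 1 library it was 18 (KO library 2 left out) to 27. In block fits that omit 1 number it was 17 (number 2 left out) to 31. Members with an unadjusted p under 0.05 numbered 1, 8 with the block, 14 with sample quality weights, 7 without KO library 1, and 0 with no filter, without the trend, or with upper-quartile, median-ratio or quantile scaling. No member changed sign with both values above their standard errors. In 22 members the sign was the same in all 19 alternatives, 8 higher and 14 lower. Acta2, Tpm1 and Des changed sign with upper-quartile scaling, these 3 with Tagln, Tpm2, Tpm3, Tln1 and Zyx with quantile normalisation, and Myl9, Myl6, Tpm3 and Parva with sample quality weights. Smtnl2 was not tested with a minimum mean of 50. Depth limits Smtnl2, Actg2, Myh10 and Actg1 most, with 31, 59, 88 and 89 estimated reads in their lowest library.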

Other observations

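Paralogs outside the list were mixed. Of 23 tested, 12 were lower in KO libraries, the median was -0.011 on the log2 scale and 0 passed the threshold with limma, with or without the replicate block. Vim, the gene of the intermediate filament protein vimentin, was at 898, 1022 and 1113 in KO libraries and 892, 996 and 1064 in controls, a log2 fold change of 0.04. The sarcomeric actins were read as well, with Acta1 at 240, 421 and 399 in KO libraries and 202, 348 and 488 in controls, and Actc1 at 42, 56 and 27 in KO libraries, against 40, 73 and 41 in controls. The genes with the smallest p were Parvb (log2 fold change 1.54, from 5, 30 and 18 in KO libraries and 5, 3 and 5 in controls), Actn2 (0.81), Tns3 (0.20) and Lmod3 (-0.65). Vim, Acta1 and Actc1 were named after their values were seen. Actn2 is also a marker of skeletal muscle fibres, whose summed markers were highest in KO library 3, where Ttn was 5386 of 10805.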
